A study of Mus musculus with 17 samples.

Results

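The comparison set the glomerular transcriptome of diabetic mice that had received atrasentan against that of lean wild type mice, to see which genes still differed from lean controls after treatment. Atrasentan is a selective blocker of the endothelin A receptor. The 12 libraries were chosen by their source labels from the 17 in the series: 7 from treated BTBR ob/ob mice and 5 from wild type BTBR mice. The ob/ob mice (genotype label BTBR ob) lack leptin in every tissue, are obese and diabetic, and took atrasentan at 5 mg per kg body weight per day in their drinking water from 18 weeks of age, for 6 weeks. The wild type mice carried no such mutation, were untreated and were killed at the same age, 24 weeks. A group of 5 saline-treated ob/ob libraries of that age is used only for values set beside the comparison. All groups share the BTBR background, the tissue (renal cortex enriched for glomeruli), polyadenylated RNA and a batch label of 1. The labels do not explain the text d30 in the names of the wild type and saline groups. Library numbers within a group follow the order of deposition and pair nothing. The sample numbers in the titles run group by group; if they follow the order of handling, which the labels do not say, that order and group cannot be told apart. No lean group took the drug, so genotype and drug change together here.

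The glomerulus is the filter of the kidney: fenestrated endothelium, a basement membrane built on collagen IV and laminin, and podocytes whose foot processes are joined by the slit diaphragm. Mesangial cells hold the capillary tuft together and deposit matrix. Endothelin-1, a peptide made mainly by endothelium, constricts vessels through the endothelin A receptor on mesangial and smooth muscle cells and acts on podocytes. In BTBR ob/ob mice the glomerular disease is known for podocyte loss and expansion of the mesangial matrix.

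Between 29161833 and 52528747 reads per library fell in genes over the 12 libraries, and the groups differed in more than single genes. Treated libraries contained 22142 ± 624 genes with at least 1 read (SD, n = 7) against 24504 ± 396 in wild type (SD, n = 5). They had 3.97% ± 0.849 of their reads outside annotated genes, against 7.85% ± 0.946. Both measures separated the groups without overlap (exact two-sided permutation test, p = 0.00126, the smallest this design allows). The first principal component of log2 values, with 38.8% of the variance, also separated all 7 treated from all 5 wild type libraries. Along the second, with 14.0%, treated libraries 2 and 5 stood apart from the other treated libraries, so counts of special interest are also given without them. Treated library 3 stood apart in macrophage and neutrophil genes and treated library 6 in proximal tubule genes, as the values below show. The mutated gene, Lep, is transcribed in fat and had at most 1 read in any library, so it gives no check of the genotype labels.

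Of 17766 genes tested, 5190 (29.2%) differed between treated ob/ob and wild type glomeruli at an adjusted p under 0.05. Of these, 2619 were higher (14.7% of genes tested) and 2571 lower (14.5%), so higher genes made up 50.5% of the calls. That share depended on scaling: it was 37.6% with upper-quartile factors and 19.2% with library totals alone, which moved the median log2 fold change of all genes from -0.01 to -0.22. Calls of at least 2-fold were more often lower, with 570 genes higher (3.21%) and 1699 lower (9.56%). The 7 treated and 5 wild type libraries did not overlap in CPM, a gene's reads scaled to library size, for 1095 genes that were above wild type (6.16%) and 1255 that were below (7.06%). By contrast, 5.12% of genes were called between saline-treated ob/ob and wild type (3.21% higher, 1.91% lower) and 33.8% between atrasentan and saline (15.3% higher, 18.5% lower). These comparisons share libraries with the present one, and their values stand beside it for that reason only.

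The falls were spread unevenly over gene types. Of 14553 protein-coding genes, 2548 (17.5%) rose and 1577 (10.8%) fell. Among 761 loci annotated as TEC, transcripts still to be experimentally checked and mostly unspliced, 4 rose and 365 (48.0%) fell, with a median log2 fold change of -1.30. Of 84 sense intronic transcripts, 43 (51.2%) fell, as did 221 of 671 antisense genes (32.9%) and 158 of 550 lincRNAs (28.7%). Counting was not stated to use strand, so reads of an antisense gene and its partner cannot be told apart. These gene types fell in the same libraries that had fewer genes detected and fewer reads outside genes, and the part of library quality or RNA composition in any fall below was not tested. Within protein-coding genes, the fifth with the highest mean CPM had 1126 rises and 169 falls among 2911 genes. The fifth with the lowest had 167 rises and 432 falls among 2911. Rises were thus more frequent among abundant genes, and the gene lists below were not matched for abundance.

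**Figure D1:**
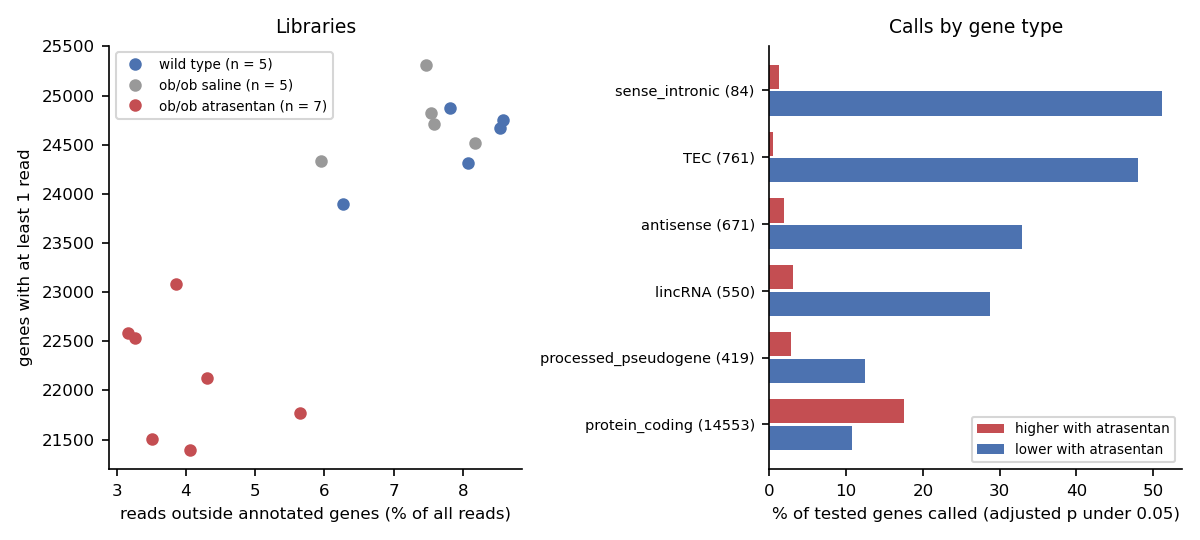
Left, each of the 17 libraries by the percentage of its reads outside annotated genes (x axis) and the number of genes with at least 1 read (y axis, not starting at 0); the 7 atrasentan libraries lie apart from the other 10 on both axes. Right, the percentage of tested genes called higher or lower with atrasentan than in wild type for 6 annotated gene types (number tested in parentheses): 48.0% of TEC loci and 10.8% of protein-coding genes were lower.

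Podocyte genes were low as a group. Counts of atrasentan against wild type in this and all later lists stand beside 14.7% of all tested genes called higher and 14.5% called lower. Counts of the saline group stand beside 3.21% higher and 1.91% lower. A count under an alternative stands beside the calls of that alternative. With library totals these were 1137 higher and 4771 lower of 17766 genes, and with the proximal tubule covariate 2323 and 1772. Of 25 tested podocyte markers, 20 were lower in every treated than in every wild type library, beside 7.06% of all genes. Of the 25 markers, 21 fell (84.0%), 1 rose and 3 did not pass. Their median log2 fold change was -1.54, beside -0.01 over all genes. The saline group had 10 podocyte markers below wild type, with a median of -0.94. In bulk tissue, fewer cells of a type and less RNA per cell cannot be told apart, and a larger share of RNA from other cells lowers these values too. With the mean of the proximal tubule markers as a covariate 20 of the 25 fell, and without treated libraries 2 and 5 the count was 21.

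The gene of the main slit diaphragm protein showed the size of the fall. Nphs1, which encodes nephrin, measured 189.5, 174, 208, 135 and 143 CPM in wild type. In treated libraries it ranged from 24.4 to 63.1 CPM (median 38.8). No treated library reached the lowest wild type value, and the log2 fold change was -1.94 ± 0.23 (SE; adjusted p = 2.32e-05). The saline group lay in between, at 81.5 ± 25.8 CPM (SD, n = 5), with a log2 difference from wild type of -1.06 ± 0.25 (adjusted p = 0.0261). It was above the treated group (atrasentan minus saline -0.88 ± 0.23, adjusted p = 0.00745).

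Magi2, a scaffold that binds nephrin, had the lowest p of the list. Its wild type values were 226, 142, 263, 173 and 161 CPM, and its treated values ran from 17.7 to 42.8 CPM (median 27.7). Every treated library was below every wild type one (log2 fold change -2.76 ± 0.26, adjusted p = 3.74e-06), and the saline mean of 94.7 ± 31.3 CPM was between the groups. Plce1, a phospholipase needed for glomerular development, fell by a similar amount, from 101 ± 11.8 to 19.00 ± 7.72 CPM (SD; -2.42 ± 0.25). The transcription factors that maintain podocyte identity were low as well: Lmx1b (-2.42 ± 0.28), Tcf21 (-2.08 ± 0.40) and Wt1 (-1.72 ± 0.26). Wt1 is expressed in the podocyte nucleus and is used to count these cells in tissue sections. It measured 163, 127, 202, 124 and 116 CPM in wild type, ranged from 20.5 to 71.99 CPM (median 37.5) in treated libraries and averaged 64.95 ± 18.1 CPM in saline ones. Synpo, which encodes the actin-binding protein synaptopodin, fell by 1.49 on the log2 scale and Podxl, a charged surface protein, by 0.75. Enpep, aminopeptidase A, fell from 648 ± 218 to 79.1 ± 55.9 CPM.

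Not all podocyte genes were low. Kirrel, Pla2r1 and Trpc6 did not pass, with log2 fold changes of -0.10, -0.05 and -0.04 (95% intervals -0.60 to 0.39, -0.43 to 0.34 and -0.53 to 0.44). Actn4, an actin crosslinker that other kidney cells also make, was the 1 member called higher (0.40 ± 0.12, adjusted p = 0.0178). Without wild type library 5 its adjusted p was 0.0572, and the groups overlapped. Upper-quartile scaling, library totals, the proximal tubule covariate and the 1.5-fold minimum each left no podocyte marker called higher.

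The collagen IV genes of the basement membrane split by chain. The α3, α4 and α5 chains, which form the mature network and are made by podocytes, all fell. The α1 and α2 chains, made by endothelial and mesangial cells, rose. Col4a3 (chromosome 1, 82586921 to 82722059, plus strand) measured 581, 329.98, 594, 393 and 352 CPM in wild type and from 48.5 to 209.8 CPM (median 88.5) in treated libraries. Its neighbour Col4a4, which is transcribed in the opposite direction across a narrow gap (82448423 to 82586849), fell by 1.57 ± 0.22 and Col4a5 fell by 1.99 ± 0.33 on the log2 scale, all 3 without overlap with wild type. Col4a1 and Col4a2 form a second head-to-head pair on chromosome 8. Col4a2 measured 695, 444, 438, 1029 and 572 CPM in wild type, where library 4 was high, and from 984 to 2449 CPM (median 1492) in treated libraries, so the groups overlapped slightly (1.27 ± 0.24, adjusted p = 0.000834). Col4a1 rose by a smaller amount (0.87 ± 0.22, adjusted p = 0.0067). Npnt, a podocyte basement membrane protein that binds integrin, fell (-1.92 ± 0.30). Over the 18 tested basement membrane genes 5 rose and 7 fell. Their median log2 fold change was 0.08, but -0.00 under upper-quartile factors and -0.14 under library totals.

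**Figure D2:**
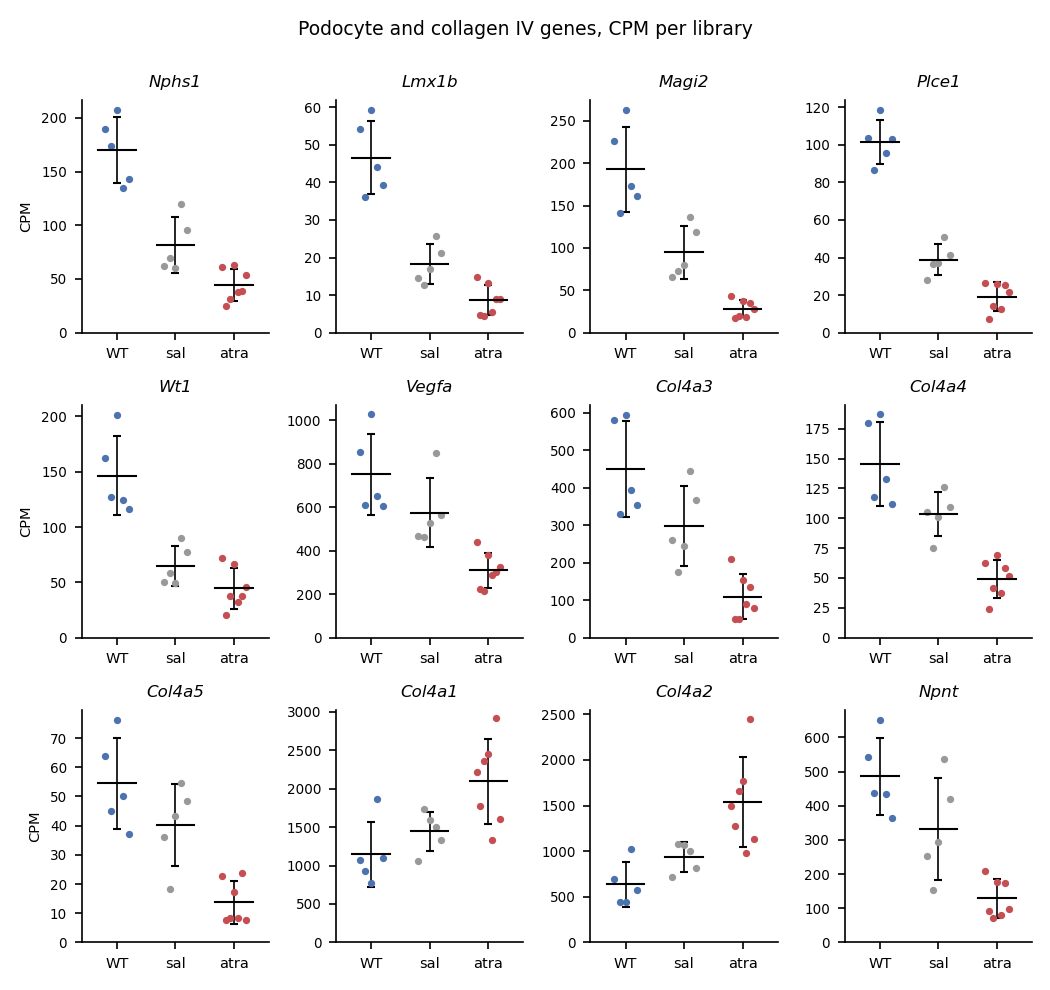
CPM of 12 podocyte and basement membrane genes in each library (points) of the wild type (WT, n = 5), saline ob/ob (sal, n = 5) and atrasentan ob/ob (atra, n = 7) groups, with the mean (line) and SD (error bar), each on its own axis from 0. On average the 6 podocyte genes, Npnt, Col4a3, Col4a4 and Col4a5 are lowest in the atrasentan libraries, and Col4a1 and Col4a2 are highest there.

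Parietal epithelial markers, which mark the cells lining Bowman's capsule, moved both ways: 3 of 8 rose and 4 fell. Cp, ceruloplasmin, rose (1.49 ± 0.22) and so did Akap12 (1.09 ± 0.25), whereas Ncam1 (-2.48 ± 0.34) and Dkk3 (-1.56 ± 0.29) fell.

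Vegfa, the growth factor that podocytes supply to the endothelium, was low in treated glomeruli. Wild type libraries gave 855, 609, 1029.7, 650.4 and 604 CPM and treated libraries from 212 to 437 CPM (median 299.5), without overlap (-1.28 ± 0.20, adjusted p = 0.000177). The saline mean, 573 ± 159 CPM, did not pass against wild type (-0.39, adjusted p = 0.322). Other members of the family moved both ways. Angpt2, a destabilising ligand of the endothelial receptor Tie2, rose (1.28 ± 0.19), as did Vegfc (1.10 ± 0.18) and its receptor gene Flt4 (0.86 ± 0.16). A pair of related ligands outside the fixed lists, Vegfd (2.67 ± 0.25) and Angpt4 (2.99 ± 0.25), were picked after their values were seen. Angpt4 was at 8.75, 6.27, 4.87, 5.72 and 3.27 CPM in wild type and from 22.9 to 62.6 CPM (median 47.03) in treated libraries. Over 15 genes of the family, 4 rose, 3 fell and 8 did not pass. The other rise was Tie1, an endothelial receptor (0.61 ± 0.13), and the other falls were Angptl2 (-1.15 ± 0.26) and Pgf, placental growth factor (-0.67 ± 0.16); these 3 were named after their values were seen.

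Glomerular endothelial markers were mostly somewhat higher. Of 20 tested, 12 rose and 1 fell, with a median log2 fold change of 0.40, beside 0.03 in the saline group. Plvap, the diaphragm protein of fenestrated and injured endothelium, measured 299.8, 279, 217, 291 and 245 CPM in wild type and from 464 to 734 CPM (median 524) in treated libraries. The tissue was enriched cortex, and the part of endothelium outside glomeruli in these values was not tested. The groups did not overlap (1.07 ± 0.12, adjusted p = 1.79e-05), and treated values also passed against saline (adjusted p = 0.000332). Eng, a co-receptor for TGF-β and BMP ligands, rose (0.87 ± 0.15), and so did the junction gene Esam (0.87 ± 0.18). Cldn5, a tight junction protein, went the other way: 211, 218, 241, 149.7 and 160.00 CPM in wild type and from 55.8 to 79.7 CPM (median 67.97) in treated libraries (-1.51 ± 0.16, adjusted p = 1.09e-05). Cldn5 was also below wild type in the saline group, where it averaged 87.4 ± 23.7 CPM (adjusted p = 0.00344). Emcn did not pass (-0.01, 95% interval -0.37 to 0.34). The count of endothelial rises was 6 with the proximal tubule covariate and 5 with library totals.

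Among 18 mesangial and smooth muscle markers 9 rose and 1 fell (median 0.64). Serpine2, a protease inhibitor abundant in mesangium, was among the most abundant genes that differed by 2-fold or more. It measured 3139, 3185, 2072, 2378 and 2206 CPM in wild type and from 5071 to 8278 CPM (median 6216) in treated libraries, with all treated values above all wild type ones (1.34 ± 0.15, adjusted p = 1.79e-05). The saline mean of 3428 ± 470.2 CPM did not pass against wild type. Mcam, an adhesion molecule of mural cells, rose (0.97 ± 0.16), as did Agtr1a, the angiotensin II receptor (0.76 ± 0.14), and Fhl2 (0.64 ± 0.13). Acta2, smooth muscle actin and a marker of activated mesangium, rose (1.30 ± 0.31, adjusted p = 0.00501), with treated library 3 at 498 CPM and the next at 243. Without that library the change was 1.04. Pdgfrb did not pass (0.23, 95% interval -0.32 to 0.77).

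Of 30 fibrillar and matricellular matrix genes 17 rose and 4 fell, with a median of 0.67. Col8a1, the short-chain collagen VIII of vessels and diabetic mesangium, had one of the smallest p-values of all genes. Wild type libraries gave 66.4, 38.5, 42.7, 52.9 and 37.3 CPM. Treated libraries ranged from 164 to 361 CPM (median 287), so the lowest treated value was above the highest wild type value (2.61 ± 0.20, adjusted p = 6.9e-07). The saline mean of 83.9 ± 11.3 CPM was also above wild type (0.82 ± 0.19, adjusted p = 0.0254) and below the treated group (atrasentan minus saline 1.79 ± 0.19, adjusted p = 6.44e-05). The small proteoglycans decorin and biglycan rose: Dcn from 9.71 ± 3.42 to 38.8 ± 11.9 CPM (2.0 ± 0.24) and Bgn from 311 ± 45.1 to 726 ± 159 (1.22 ± 0.15). Mmp2, a gelatinase, rose (1.31 ± 0.18), as did Thbs1, a matricellular activator of latent TGF-β (1.92 ± 0.36), and Col3a1 (1.39 ± 0.31). Col1a1, the main chain of collagen I, did not pass at a low level (3.07 ± 2.67 against 6.05 ± 2.47 CPM; 95% interval of the log2 fold change -2.25 to 0.30). With library totals the counts were 14 matrix genes higher and 7 lower, and without treated libraries 2 and 5 they were 18 and 5.

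The TGF-β and BMP list, 25 tested genes, had 14 rises and 1 fall (median 0.51). Bmp2, a ligand that endothelium makes, was at 50.4, 49.4, 42.5, 47.1 and 35.7 CPM in wild type and from 80.5 to 216 CPM (median 173) in treated libraries (1.86 ± 0.22, adjusted p = 2.02e-05). Ltbp2, a latent TGF-β binding protein of elastic matrix, rose from 1.33 ± 0.403 to 7.29 ± 3.12 CPM (2.45 ± 0.32). Bmp6 (0.81 ± 0.12), the receptor Bmpr2 (0.96 ± 0.15) and the matricellular target Ccn2 (0.88 ± 0.24) were higher as well. For Bmp2, Ltbp2, Bmp6 and Bmpr2 no treated library overlapped wild type.

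The target of the drug belongs to a small list. Ednra, the endothelin A receptor, measured 47.5, 35.3, 33.2, 31.00 and 24.4 CPM in wild type and from 25.3 to 81.5 CPM (median 62.4) in treated libraries. The groups overlapped, and the rise passed the test (0.79 ± 0.22, adjusted p = 0.0124) except with library totals (adjusted p = 0.0503) and when a change of at least 1.5-fold was required (adjusted p = 0.359). In saline-treated mice Ednra averaged 34.1 ± 4.15 CPM, with a log2 difference from wild type of -0.01. Edn1, the ligand, was at 52.4, 51.1, 46.4, 39.1 and 44.6 CPM in wild type and from 63.6 to 97.2 CPM (median 70.8) in treated libraries, without overlap (0.70 ± 0.15, adjusted p = 0.00226). Ece1, the enzyme that cuts the precursor to active endothelin, rose (0.77 ± 0.15). Mme encodes neprilysin, a peptidase of podocytes and tubule that degrades endothelins and other peptides, and fell from 76.2 ± 20.7 to 15.9 ± 6.82 CPM (-2.26 ± 0.28, adjusted p = 3.48e-05). Ednrb, the endothelin B receptor, did not pass (-0.15, 95% interval -0.85 to 0.55), nor did Edn3 (-0.28). Of the 7 endothelin genes tested, 3 rose and 1 fell. Ren1, the renin gene of juxtaglomerular cells, did not pass (526 ± 149.8 against 508 ± 249 CPM; 95% interval of the log2 fold change -0.61 to 0.71). Clu, a secreted chaperone, was likewise at 186 ± 51.9 against 176 ± 29.4 CPM (log2 fold change 0.08 ± 0.23, adjusted p = 0.831, 95% interval -0.41 to 0.56).

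**Figure D3:**
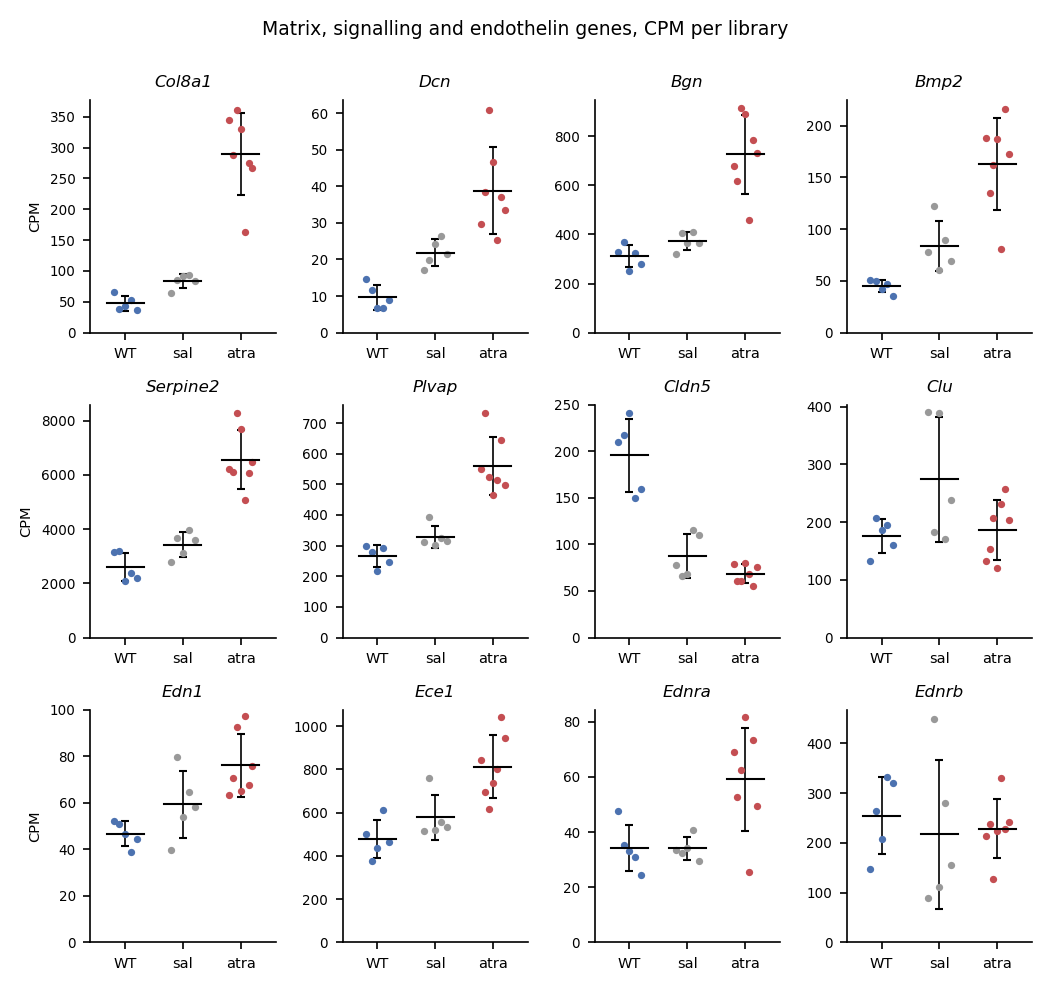
CPM of 12 matrix, signalling, vascular and endothelin genes in each library (points) of the wild type (WT, n = 5), saline ob/ob (sal, n = 5) and atrasentan ob/ob (atra, n = 7) groups, with mean and SD, each axis from 0. Col8a1, Bmp2, Serpine2, Plvap and Edn1 are highest with atrasentan without overlap with wild type, Cldn5 is lowest there, and Clu and Ednrb overlap in all 3 groups.

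Many macrophage, antigen presentation and interferon response genes were higher in treated glomeruli. The promoters of 5 of these genes are shown because motifs in them are known binding sites of interferon-induced factors (a pair of GAAA repeats spaced by 2 bases, the core of the interferon response element) and of the factors that drive MHC genes (GATTGG, the Y box). Each line gives bases upstream of the RefSeq transcript start on GRCm38.p6, 5′ to 3′ in the direction of the gene, with motif matches in capitals; a match on the other strand reads as the reverse complement. The genes printed were picked after their values were seen.
B2m, chr2:122147528-122147577, plus strand: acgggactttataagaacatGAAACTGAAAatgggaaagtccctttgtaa
Igtp, chr11:58199502-58199551, plus strand: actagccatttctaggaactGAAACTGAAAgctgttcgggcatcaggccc
Cxcl10, chr5:92349073-92349122, minus strand: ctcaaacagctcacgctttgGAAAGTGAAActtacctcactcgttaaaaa
H2-Aa, chr17:34287845-34287894, minus strand: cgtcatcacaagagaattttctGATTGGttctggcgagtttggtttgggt
H2-Eb1, chr17:34305785-34305859, plus strand: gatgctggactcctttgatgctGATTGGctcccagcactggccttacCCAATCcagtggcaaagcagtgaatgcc

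Searched on both strands in the 250 bases before the start, the GAAA repeat pair occurred in 18 of 31 interferon response genes with a RefSeq promoter (58.1%) and in 3.33% of 12222 tested genes with one. The same pair occurred in 3 of 17 MHC class I genes (17.6%), among them B2m, and in 1 of 9 MHC class II genes (11.1%). The class II genes searched include H2-Eb2, which had too few reads to be tested. GATTGG occurred in 8 of 9 MHC class II genes (88.9%), in 10 of 17 MHC class I genes (58.8%) and in 21.1% of tested genes. It was not limited to MHC genes, and occurred in 10 of 15 clock genes (66.7%). A match describes letters in a window and shows no binding.

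Macrophage markers were high: 13 of 20 tested rose and none fell (median 1.29), beside a median of 0.00 in the saline group. The 3 genes of complement C1q, the recognition unit of the classical pathway and a product of tissue macrophages, lie side by side on chromosome 4 and had among the largest rises of all. C1qa was at 2.33, 1.75, 2.40, 0.791 and 0.648 CPM in wild type. Treated libraries ranged from 9.96 to 170.5 CPM (median 25.1); library 3 was the highest, and all 7 were above every wild type library. The log2 fold change was 4.87 ± 0.70 (adjusted p = 0.000101), and 4.02 without library 3. C1qb (4.92 ± 0.67) and C1qc (4.71 ± 0.63) rose similarly, by 4.02 and 3.85 without library 3. The saline means of the 3 genes, from 5.4 to 6.51 CPM, did not pass against wild type. Adgre1, which encodes the macrophage antigen F4/80, was at 1.73, 1.90, 1.55, 2.86 and 3.86 CPM in wild type and from 4.49 to 22.4 CPM (median 7.01) in treated libraries (1.98 ± 0.38, adjusted p = 0.00106). Csf1r, the receptor for the macrophage growth factor, rose less (1.09 ± 0.30, adjusted p = 0.0119) and overlapped. Itgam and Mrc1, a marker of resident macrophages, did not pass (0.68 and 0.04, 95% intervals -0.02 to 1.38 and -0.32 to 0.40).

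Markers of other leukocytes gave fewer calls. Of 8 neutrophil genes 5 rose. Without treated library 3, 2 rose, and none rose with the proximal tubule covariate or limma-voom. Lcn2, lipocalin-2, a product of neutrophils and injured tubule, was at 33.0 CPM in library 3 and at most 7.35 in the other treated libraries (log2 fold change 2.80 ± 0.71, and 1.87 without library 3). Among 15 T and NK lymphocyte genes 2 rose (13.3%), and among 9 B and plasma cell genes 1 rose (11.1%), near the 14.7% of all genes. Igkc did not pass (0.89, adjusted p = 0.0857). Red cell genes, signs of blood in the tissue, had 2 rises of 5, and none without treated library 5.

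MHC class II presentation, by which professional antigen-presenting cells show peptides to CD4 T cells, was high in 9 of 11 tested genes and low in none (median 2.06). H2-Ab1 measured 229, 109, 103, 154 and 126 CPM in wild type and from 361 to 1342 CPM (median 518) in treated libraries. Treated values were all above wild type (2.25 ± 0.33, adjusted p = 0.000119), whereas the saline mean of 158 ± 46.6 CPM was within the wild type range. H2-Aa (2.32 ± 0.35), H2-Eb1 (2.30 ± 0.35) and the invariant chain Cd74 (2.06 ± 0.33) rose to the same degree. Ciita, the transactivator that switches on these genes, rose as well (2.37 ± 0.47, adjusted p = 0.0013). The macrophage markers above were also high in the treated group, but the lists did not order its libraries alike. By mean log2 CPM over each list, treated library 3 was the highest in both (macrophage 5.67, MHC class II 6.56). Treated library 2 was the lowest for macrophage genes (3.66) but at 6.05 for MHC class II genes. The part of macrophages in the MHC class II values was not tested.

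For MHC class I presentation, found in nearly all cell types, 17 of 19 genes rose and 1 fell (median 1.11), beside a median of -0.16 in the saline group. Most of the rises overlapped wild type: of the 19 genes, 5 lay above it without overlap and 1 below. With library totals 13 rose, and with the 1.5-fold minimum 8 rose. B2m, the shared light chain, was at 1716, 1266, 853, 934 and 1308 CPM in wild type and from 2527 to 5436 CPM (median 3142) in treated libraries, without overlap (1.57 ± 0.24, adjusted p = 0.000146). The saline mean was 1091 ± 281 CPM. The heavy chain genes H2-K1 (1.69 ± 0.27) and H2-D1 (1.54 ± 0.22) rose, and in both the highest wild type value was library 1. The peptide transporters Tap1 (1.87 ± 0.37) and Tap2 (1.22 ± 0.17) and the immunoproteasome subunits Psmb8 (1.42 ± 0.25) and Psmb9 (1.54 ± 0.31) rose too. H2-Q7 did not pass (0.06, 95% interval -0.35 to 0.47). Class I heavy chain genes share long stretches of sequence and can exchange reads, so single values of H2-D1, H2-K1 and H2-Q7 are uncertain. The constitutive proteasome had 3 of 25 genes higher (12.0%), near the 14.7% of all genes tested, and a median of 0.19.

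Interferon response genes followed: 24 of 40 rose and none fell (median 1.01, beside -0.08 in the saline group). Treated values spread widely for the interferon-induced GTPase Igtp, from 41.3 to 328 CPM (median 99.997), against 46.9, 26.5, 22.8, 26.3 and 28.5 CPM in wild type (2.24 ± 0.48, adjusted p = 0.00221). By mean log2 CPM over the list, treated libraries 4 (4.45) and 5 (4.06) were below wild type library 1 (4.68). Of the 40 genes, 2 lay above wild type without overlap (5.0%, beside 6.16% of all genes): Irf8, a factor of myeloid cells (1.08 ± 0.18), and Oasl2 (0.97 ± 0.19). Bst2, tetherin, rose with overlap (1.22 ± 0.25). Cxcl10, a chemokine that draws T cells, ranged from 1.01 to 31.00 CPM (median 3.84) in treated libraries against 3.83, 1.27, 1.93, 1.95 and 1.33 CPM (2.34 ± 0.69, adjusted p = 0.0165). With limma-voom its adjusted p was 0.174, and with the proximal tubule covariate 0.0781. The interferon genes themselves were nearly absent. Ifng had 88 reads over the 7 treated and 13 over the 5 wild type libraries, too few to be tested, and the receptor gene Ifnar2 was slightly higher (0.48 ± 0.09). Without treated libraries 2 and 5, 26 interferon response genes rose, and with the tubule covariate 17 rose and 1 fell.

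**Figure D4:**
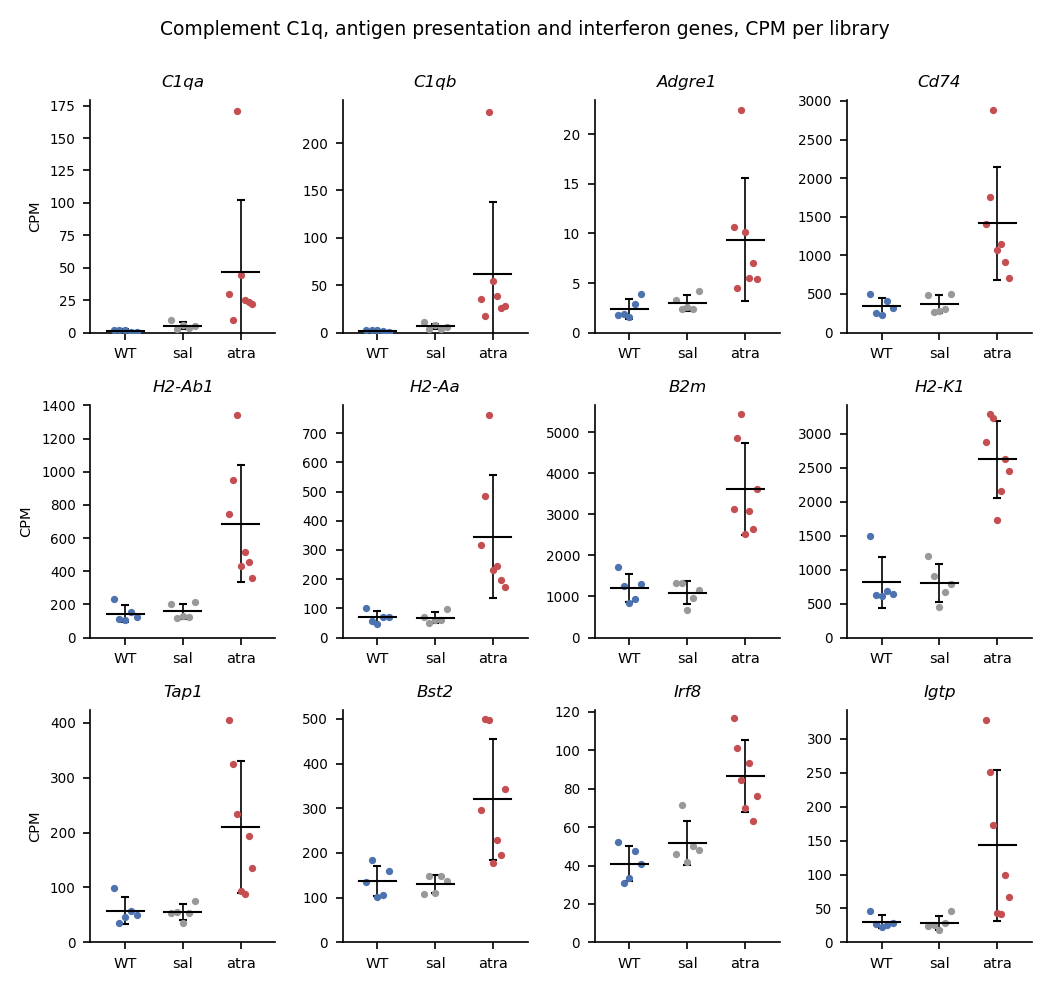
CPM of 12 macrophage, antigen presentation and interferon response genes in each library (points) of the wild type (WT, n = 5), saline ob/ob (sal, n = 5) and atrasentan ob/ob (atra, n = 7) groups, with mean and SD, each axis from 0. Atrasentan libraries are highest throughout; library 3 (170.5 CPM for C1qa) stands far above the rest for C1q, and only Tap1, Bst2 and Igtp overlap wild type.

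Chemokine and adhesion genes had 8 rises and 1 fall among 13 tested (5 rises with the tubule covariate). Icam1, the leukocyte adhesion molecule of endothelium, rose from 69.5 ± 18.7 to 175 ± 48.7 CPM without overlap (1.33 ± 0.22), as did Cxcl16 (1.18 ± 0.17). Cxcl12, a chemokine that podocytes make, fell (-1.16 ± 0.19). The complement list of 21 genes had 11 rises and 4 falls. Besides C1q, the C1 subcomponent gene C1ra rose (1.58 ± 0.21). C3, the central component, did not pass: treated libraries averaged 15.2 ± 8.88 CPM and wild type 14.3 ± 2.13 (95% interval of the log2 fold change -0.79 to 0.96), while the saline mean was 77.8 ± 48.8 CPM and passed against both (adjusted p = 0.0113 against wild type and 0.000642 against atrasentan).

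The samples were cortex enriched for glomeruli, and tubule genes were present in all libraries. Of 22 proximal tubule genes 10 fell and 1 rose against wild type (median -1.24). The saline group differed in the other direction, with 8 genes higher than wild type and 1 lower (median 1.95). Slc5a2, the glucose transporter SGLT2, was at 34.8, 70.4, 64.4, 127 and 71.6 CPM in wild type, from 5.67 to 36.1 CPM (median 19.4) in treated and on average 291 ± 178 in saline libraries (-1.81 ± 0.44, adjusted p = 0.00527 against wild type). Gatm, an enzyme of creatine synthesis in the proximal tubule, fell from 345 ± 119 to 103 ± 30.4 CPM (-1.74 ± 0.33). Proximal tubule RNA varied within groups: its mean log2 CPM over the list ran from 2.93 to 6.09 in treated, from 5.22 to 6.22 in wild type and from 6.01 to 8.21 in saline libraries. Library 6 was the highest of the treated libraries, and without it 18 of the 22 genes fell. Without wild type library 4, 6 fell. Loop of Henle genes had 1 fall in 11 (median -1.10). Distal tubule genes had 1 rise in 12 (median 0.43) and intercalated cell genes 1 rise in 10 (median 0.62). None of 8 principal cell genes passed in edgeR, DESeq2 or limma-voom (median 0.58, with 2 higher at an unadjusted p under 0.05). With limma-voom the medians were -0.29 for distal tubule, 0.15 for intercalated cell and -0.27 for principal cell genes. The direction of the distal tubule and principal cell lists thus depended on the method. Umod, the loop's main secreted protein, overlapped widely (-0.12, 95% interval -1.47 to 1.23). Tubule injury genes gave 3 rises and 1 fall among 13; Lgals3, a lectin of macrophages and injured epithelium, rose without overlap (1.10 ± 0.23).

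**Figure D5:**
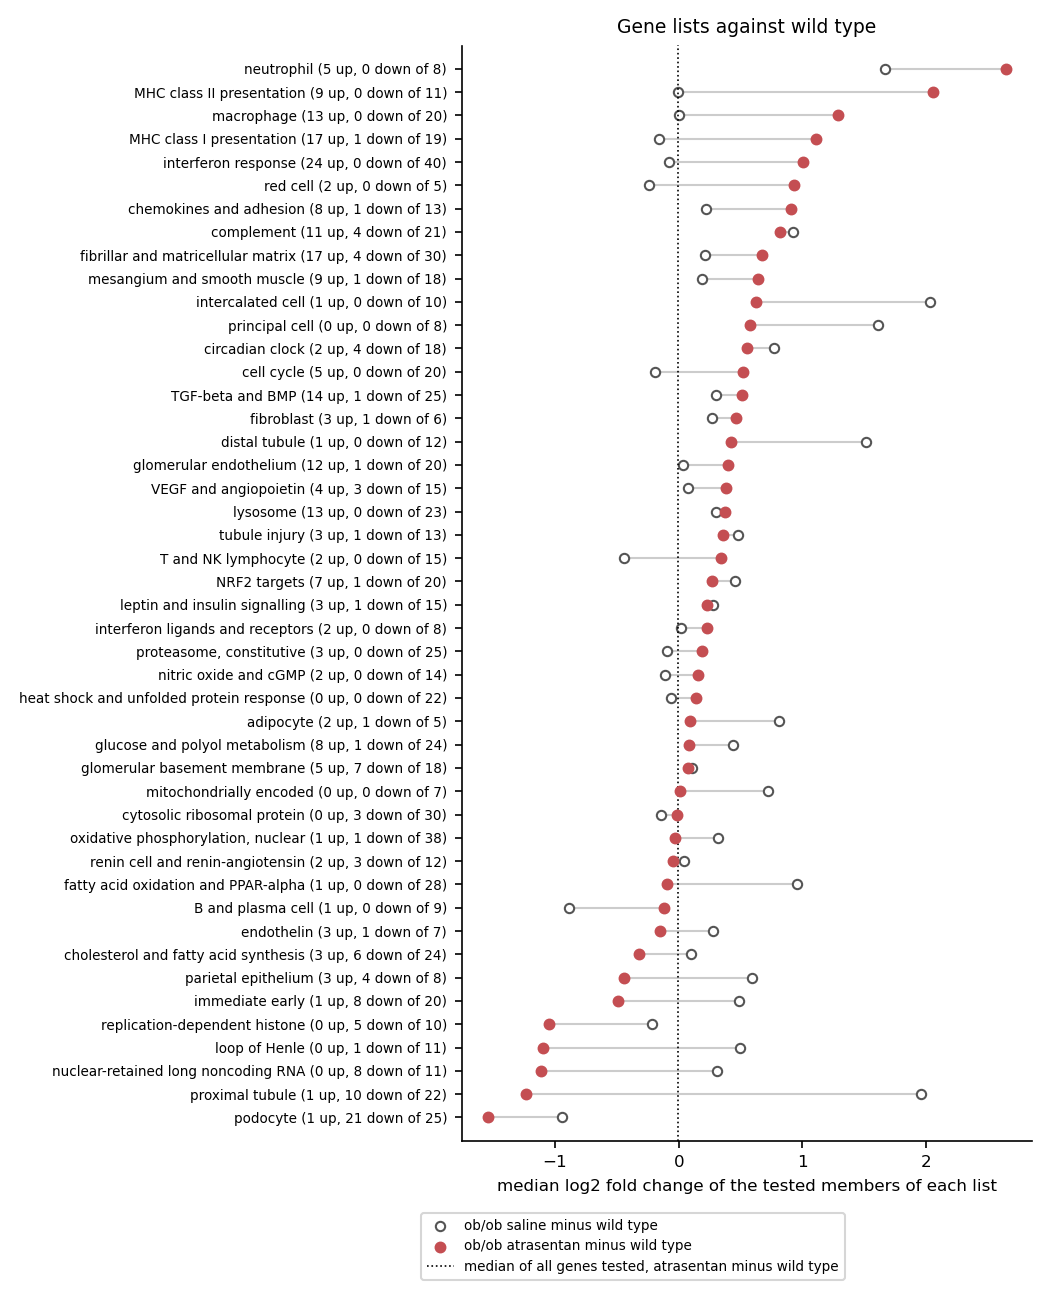
Median log2 fold change against wild type of the tested members of 46 gene lists, for atrasentan-treated ob/ob (filled points) and saline-treated ob/ob (open points), which share the 5 wild type libraries. Labels give the members called higher and lower with atrasentan of those tested, and the dotted line is the median of all genes tested (-0.01). The podocyte list lies lowest at -1.54 and the MHC class II and neutrophil lists highest at 2.06 and 2.65. The number of neutrophil genes called depended on treated library 3. That library had a mean log2 CPM of 4.33 over the neutrophil list. The other treated libraries ran from 0.22 to 2.76, and wild type libraries reached at most 1.09.

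Of 38 nuclear genes of oxidative phosphorylation 1 rose and 1 fell (median -0.03), and none of the 7 tested mitochondrially encoded genes passed in edgeR, at an unadjusted p under 0.05, in DESeq2 or in limma-voom. Of 28 fatty acid oxidation genes 1 rose; 8 fell when treated library 6 was left out, and 9 rose with the tubule covariate. Glucose and polyol metabolism had 8 rises and 1 fall in 24, 7 falls without library 6, and 5 rises and 6 falls with library totals; Hk1, hexokinase-1, rose (0.51 ± 0.10), as did Pfkfb3, a regulator of glycolysis (0.97 ± 0.20). Cholesterol and fatty acid synthesis had 3 rises and 6 falls in 24, which became 4 and 1 with the tubule covariate. Genes of the NRF2 antioxidant response showed 7 rises and 1 fall in 20, with 3 rises under library totals and 13 with the tubule covariate. Gstm1, a glutathione transferase, was at 246, 322, 239.5, 226 and 246 CPM in wild type and from 474 to 582 CPM (median 519.8) in treated libraries. Its values were tight and did not overlap (1.02 ± 0.10, adjusted p = 6.69e-06); Hmox1, heme oxygenase-1, rose as well (0.80 ± 0.12). None of 22 heat shock and unfolded protein response genes passed in edgeR, DESeq2 or limma-voom (median 0.14). At an unadjusted p under 0.05 the edgeR count was 1, and 4 genes rose when wild type library 2 was left out.

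Lysosomal genes rose in 13 of 23 cases, among them Grn, progranulin (0.75 ± 0.09), and the cathepsins Ctsb (0.74 ± 0.11) and Ctsk (1.02 ± 0.18); 4 were lower with upper-quartile scaling. Leptin and insulin signalling had 3 rises and 1 fall in 15; the lowest p was that of Stat3, which carries signals of the leptin receptor and of cytokines (0.92 ± 0.13). Cell cycle genes had 5 rises in 20, with the lowest p for Ccnd1, cyclin D1 (1.11 ± 0.16).

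Immediate early genes, which respond within minutes to handling and signals, had 8 falls and 1 rise in 20. Egr1 was at 744, 449, 1174, 1722 and 331 CPM in wild type, a spread of several fold, and from 89.6 to 300.2 CPM (median 238) in treated libraries (-2.08 ± 0.37, adjusted p = 0.000553). Btg2 fell (-1.73 ± 0.28) and Klf6 rose (0.84 ± 0.16). Without wild type library 4, which had the highest Egr1, 5 genes of the list fell.

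Clock genes depended on single wild type libraries and on the method. Arntl, the core activator BMAL1, was at 4.34, 29.97, 7.11, 52.5 and 63.4 CPM in wild type, where libraries 1 and 3 were near the treated range of 1.69 to 6.25 CPM (-3.31 ± 0.53). Npas2, its partner, showed the same split: 0.421, 6.57, 0.948, 17.9 and 12.5 CPM in wild type (-5.12 ± 0.89). Cry1, a repressor of the loop, was higher in all treated than in all wild type libraries (1.87 ± 0.33). Of 18 clock genes 2 rose and 4 fell, and 1 to 9 rose when single libraries were left out. With all libraries kept, 4 rose with DESeq2, 8 with the authors' normalized table and 9 with limma-voom. The E-box CACGTG, on which BMAL1 acts, occurred in 5 of 15 clock gene promoters (33.3%) and in 9.39% of those of tested genes. The labels give no hour of killing, and its part in these values was not tested.

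Nuclear-retained long noncoding RNAs fell in 8 of 11 cases and rose in none, and the 10 tested histone genes had 5 falls, or 3 without wild type library 3. Malat1 was at 1438, 1571, 1575, 1208 and 1758 CPM in wild type and from 192 to 996 CPM (median 369) in treated libraries (-1.56 ± 0.33, adjusted p = 0.00184). Neat1 (-1.30 ± 0.19) and Kcnq1ot1 (-1.72 ± 0.23) fell too, all 3 without overlap. The treated group also had fewer detected genes and fewer reads outside genes, as given above. Within that group, genes detected did not follow the mean log2 CPM over the noncoding RNA list. Libraries 2 and 5 had the highest means (3.31 and 3.06) with 21773 and 21396 genes detected. Library 4, with the most genes (23081), was at 2.33. Reads outside genes ran closer to the list. Library 2 was the highest treated library in both (5.65% of reads), and library 6 the lowest in both (3.17%, list mean 1.90). A link between these measures was not tested.

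The single genes of largest change, chosen by size among protein-coding genes that did not overlap, were partly of no list. Ms4a4d, a membrane protein of the MS4A family, had 13 reads in all wild type libraries together and 1001 in the treated ones (5.62 ± 0.87, adjusted p = 0.000173). Gabra3, a subunit of the GABA-A receptor, rose from 0.176 ± 0.141 to 7.95 ± 6.68 CPM (5.43 ± 0.62), and its saline mean of 2.69 ± 0.972 CPM was also above wild type (adjusted p = 0.00354). Qrfpr, a neuropeptide receptor, was at 1.06, 1.90, 6.01, 0.365 and 0.825 CPM in wild type, from 42.2 to 87.5 CPM (median 58.5) in treated and 43.8 ± 29.8 CPM in saline libraries (4.94 ± 0.62). The orphan receptor Gpr176 (3.93 ± 0.42), the metalloproteinase inhibitor Timp4 (3.69 ± 0.55), the platelet chemokine Ppbp (3.67 ± 0.45) and the lectin ficolin-A, Fcna (4.06 ± 0.54), were further rises. Serpina3f (3.89 ± 0.76), one of a cluster of near-identical protease inhibitor genes, and the class Ib gene H2-M2 (3.86 ± 0.83) complete the 12 with the C1q genes.

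Among the falls, Slc22a7, an organic anion transporter of the proximal tubule, had 904 reads in the 5 wild type and 15 in the 7 treated libraries (-6.48 ± 0.92, adjusted p = 9.88e-05). Slc22a19, a related transporter with close copies (-5.31 ± 0.76), and Kap, an androgen-responsive protein of the proximal tubule, were low as well. Kap ranged widely in wild type, at 14.1, 187, 28.4, 29.2 and 82.05 CPM, and from 1.2 to 7.14 CPM (median 2.50) in treated libraries (-4.27 ± 0.74). Other falls were in Lypd1 (-4.63 ± 0.75), Grm7, a glutamate receptor (-3.59 ± 0.60), Tspoap1 (-3.56 ± 0.79), Luzp2 (-3.60 ± 0.51) and Eya1, a transcription cofactor of kidney development (-4.62 ± 0.80). Further falls were in Mgat5b (-5.49 ± 0.73), Fam163a (-3.62 ± 0.85) and Lctl (-3.42 ± 0.36). Wild type library 1 was the lowest for Mgat5b, Lypd1 and Grm7.

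The most abundant genes that differed by 2-fold or more were all rises. Besides Serpine2, B2m, H2-K1 and H2-D1 they were Serinc3, a transmembrane protein (1.07 ± 0.16), and F2r, the thrombin receptor PAR1 (1.47 ± 0.19). F2r was at 1161, 981, 876, 1078 and 853 CPM in wild type and from 1794 to 3724 CPM (median 2775) in treated libraries, without overlap. By the smallest p-value, genes picked after the fact were Rnase4, a secreted ribonuclease (from 52.2 ± 6.34 to 181 ± 33.96 CPM; 1.79 ± 0.13), and Snx31, a sorting nexin (from 58.4 ± 11.7 to 13.9 ± 2.58 CPM; -2.07 ± 0.15). Both also passed between saline and wild type, at log2 differences of 0.88 and -1.67.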

How the data were processed

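Poly(A) RNA of glomeruli-enriched cortex was sequenced as single-end 50-base reads with the TruSeq v2 kit, which does not mark strand, per the labels' protocols. The authors deposited whole-number read counts per gene. The submitters' processing notes list the build GRCm38 with STAR, HTSeq, DESeq2, limma and edgeR. Their versions, the annotation release and the strand setting were not given in the sources used here. A second deposited table holds the authors' normalized log2 values and served only as an alternative.

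The 5 summary lines of the count table were kept out of library sizes and tests, and 99.8% of 53379 gene IDs were matched to the annotation. Counts were tested with edgeR 4.0.16 (R 4.3.3): low genes removed by filterByExpr, TMM scaling, 1 quasi-likelihood fit of all 17 libraries, contrast atrasentan minus wild type, and Benjamini-Hochberg adjustment over all 17766 genes, called at an adjusted p under 0.05. Standard errors and 95% intervals of log2 fold changes come from this fit. CPM use the TMM-scaled library sizes. The biological coefficient of variation was 0.312. The procedure was tested on simulated data. Library measures were compared by exact two-sided permutation tests. Replicates are labelled as separate mice, and all 31 pairs within groups differed by far more than sampling noise (chi-square per degree of freedom from 36.6 to 190.8).

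The genes named are the 12 largest rises and 12 largest falls among called protein-coding genes without overlap and with at least 1 CPM in the higher group, up to 4 members per list with the lowest p plus defining members, 11 genes fixed by name, and the 6 most abundant called genes of at least 2-fold. The members, the 46 gene lists (807 distinct genes, 761 tested) and these rules were chosen with earlier results of these data known. Some genes that the rules name are not reported here. Promoters are RefSeq entries for GRCm38.p6. Alternatives were RLE, upper-quartile and no scaling, DESeq2 1.42.0, limma-voom (limma 3.58.1), other filters, the 2 groups alone, a proximal tubule covariate, a 1.5-fold minimum, the authors' normalized table, each library left out and treated libraries 2 and 5 left out. A fit of protein-coding genes only was added after seeing the data.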

Additional observations from a re-analysis of the deposited data

Results flagged for a closer look

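In 36 of 294 groups of libraries (a gene or library measure in the 7 treated or the 5 wild type libraries), 1 library lay far from the others by Dixon's criterion. For independent, normally distributed values, chance alone flags about 1 in 20 groups. CPM of related genes in the same libraries need not meet this, so the count cannot be compared directly with that rate.

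Treated library 3 was far above the other treated libraries for the macrophage and complement genes C1qb (233.3 CPM), C1qa (170.5), C1qc (218.4) and Adgre1 (22.43). The same library was far above for the presentation and adhesion genes H2-M2 (21.55 CPM), H2-Eb1 (720.5) and Cxcl16 (198.2). It also stood apart for Lcn2 (32.96 CPM), Acta2 (497.6), Ifnar2 (206.1), Hmox1 (73.9), Npas2 (0.9627) and, at very few reads, Slc22a7 (0.2548). Treated library 6 was highest for Gabra3 (22.61 CPM) and Timp4 (20.34), and library 2 for the noncoding RNAs Kcnq1ot1 (46.38) and Neat1 (279.8). Library 5 was highest for Gatm (167.9 CPM) and had the most gene reads (52528747). Library 7 stood apart for Eya1 (0.3199 CPM) and for the share of gene reads in its 10 most abundant genes (6.369%).

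In the wild type group, library 1 was far above the rest for 6 antigen presentation, interferon and complement genes: H2-D1 (3108 CPM), H2-K1 (1489), Psmb9 (77.45), Igtp (46.92), Cxcl10 (3.833) and C1ra (33.87). It also had the most gene reads (40965108) and the least Col1a1 (1.706 CPM). Wild type library 2 was highest for Slc22a7 (12.54 CPM), Slc22a19 (6.513) and Gstm1 (322.2). Library 3 was highest for Qrfpr (6.006 CPM), Ncam1 (24.88) and Mme (112.2), and library 5 was lowest for Actn4 (1337).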

How the results depend on the processing

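The fit reported above called 2619 genes higher and 2571 lower. Library totals gave 1137 higher and 4771 lower. When a change of at least 1.5-fold was required, which tests a stricter hypothesis, the counts were 411 and 931. Leaving out single libraries gave 2069 to 2755 higher and 2023 to 2867 lower genes, a difference in genes detected of -2518 to -2237, and a difference in reads outside genes of -4.278 to -3.699 percentage points. The other alternatives stayed within 1.5 times of both counts, but the genes called changed. Of the 5190 calls, 3708 were kept in the same direction with library totals, 3413 with the proximal tubule covariate and 4029 without wild type library 3. Direction was checked for the genes named in the text, and none of their calls was reversed. Those genes were largely chosen for a low p or a lack of overlap. Of 126 genes named and called, 31 lost the call under some alternative, most often under the 1.5-fold minimum, and 1, Actn4, when a single library was left out. No paired analysis was possible because the replicate numbers follow the order of deposition and the labels pair no mice. Depth was sufficient for abundant genes; in genes with few reads in 1 group, such as Ms4a4d and Slc22a7, the size of the fold rests on few reads.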
